A study of Homo sapiens with 14 samples.

Results

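The collagen chain genes are the 44 gene symbols, of 59050 in the deposited count table, that read COL, a number, A and a number, such as COL4A1. They were grouped by the structure their protein joins into 11 fibrillar chains, 8 basement membrane chains (COL4A1 to COL4A6, COL15A1 and COL18A1) and 25 other chains. Levels are CPM, counts per 1000000 of the library's TMM-scaled size. A mean of at least 10 CPM at some stage in RNA or Ribo was reached by 32 of them. The other 12 stayed at or below a stage mean of 8.02 CPM, which COL6A3 reached.

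Collagens are secreted or membrane-bound proteins whose chains wind into triple helices of defined chain composition. Fibrillar collagens form the banded fibrils of connective tissue, and type IV collagen forms the sheet-like network of basement membranes on which epithelia, including the pancreatic epithelium, rest. Fibril-associated collagens decorate fibrils, type VI collagen forms beaded filaments near cells, and transmembrane collagens are anchored in the plasma membrane. The chains are hydroxylated, glycosylated and folded in the endoplasmic reticulum before export and cross-linking.

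The study followed HUES8, an established human embryonic stem cell line of wild-type (WT) genotype, through a directed differentiation toward the pancreas. The stages were definitive endoderm (DE), early pancreatic progenitor (PP1) and late pancreatic progenitor (PP2), and every group was WT HUES8. RNA libraries held total RNA depleted of ribosomal RNA, and Ribo libraries held ribosome-bound RNA. For each assay there were 2 libraries of DE, 2 of PP1 and 3 of PP2, which makes 14. The labels used here name no agent, dose or day of differentiation. A library was the unit of replication, and nothing in the labels says that replicates came from separate cultures, so p-values measure the spread between these libraries, which may be technical.

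Depth ran between 15107847 and 21009065 counts in RNA and between 4710335 and 24186949 in Ribo. Of RNA counts, 89.3% to 93.6% fell in protein-coding genes. In Ribo they took 34.8 and 35.3% at DE, 28.2 and 30.9% at PP1 and 95.2, 43.97 and 79.9% at PP2, so the Ribo PP2 libraries differed in composition among themselves. MT-RNR2, a ribosomal RNA of mitochondria, made up 1.65, 44.6 and 11% of counts in Ribo PP2 replicates 1 to 3. Its share was 49.97 and 49.17% in the Ribo DE libraries and 60.8 and 57.7% in the Ribo PP1 libraries. In this share and in the protein-coding share, Ribo PP2 replicate 2 was the PP2 library nearest the earlier stages. Ribo PP2 replicate 2 and RNA PP2 replicate 3 stood apart from the other PP2 libraries of the same assay in many of the values below. Counts of genes are given with and without them, which does not mark either library as faulty.

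Marker levels separated DE from the progenitors, and RNA PP2 replicate 3 went against its label in the progenitor markers. The summed level of 6 definitive endoderm markers was 6205 to 6548 CPM in DE RNA, 322 to 366 CPM at PP1 and 115 to 252 CPM at PP2, while 7 pancreatic progenitor markers summed to 93.2 to 96.0, 395 to 414 and 268 to 1030.5 CPM at the same stages. The lowest of the PP2 sums was that of replicate 3, below both PP1 libraries. PDX1, a transcription factor of the pancreas, had RNA levels of 0 and 0 CPM at DE, 63.9 and 58.1 CPM at PP1 and 212, 198 and 42.04 CPM at PP2, and SOX9, a progenitor transcription factor, had 1.07 and 1.72 CPM at DE, 128 and 153 CPM at PP1 and 510.1, 520.3 and 100.2 CPM at PP2, so that PP2 replicate 3 lay below the PP1 libraries for both. The 6 hepatocyte markers, AFP, ALB, TTR, APOB, APOA1 and SERPINA1, summed to 16.1 to 18.4 CPM in DE RNA, 12079 to 13139 CPM at PP1 and 4637 to 6909 CPM at PP2. The part of any such cells in the collagen results was not tested, and in these bulk samples a change in the number of cells of a type and a change in RNA per cell cannot be told apart.

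Collagen transcripts were a smaller share of the transcriptome in progenitors than in endoderm. They made up 0.791 and 0.883% of protein-coding RNA counts at DE, 0.5001 and 0.538% at PP1 and 0.515, 0.509 and 0.372% at PP2. In Ribo the shares were 0.676 and 0.688%, 0.383 and 0.334% and 0.742, 0.395 and 0.753% at the same stages. The 2 RNA libraries of DE lay above all 5 progenitor libraries, whereas the Ribo shares of PP2 overlapped those of DE and lay above those of PP1. The exact (Clopper-Pearson) 95% intervals of these shares had half-widths of at most 0.00495 percentage points in RNA and 0.0111 in Ribo, and cover counting error only. With n = 2 against 2 the smallest exact two-sided permutation p is 0.333, and with n = 3 against 2 it is 0.2, so the shares were not tested.

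The mix of classes changed as well. The 25 chains outside the fibrillar and basement membrane classes summed to 2128 and 2536 CPM in RNA at DE, 822 and 849 CPM at PP1 and 588, 569.5 and 554 CPM at PP2. Fibrillar chains summed to 1188 and 1253 CPM, 999 and 1098 CPM, and 1416, 1328 and 685 CPM at the same stages. Basement membrane chains were the most abundant class in every RNA library. In Ribo libraries of DE, however, those same 25 chains held 48.2% and 48.4% of collagen CPM, and the basement membrane chains held 39.6% and 36.7%.

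**Figure D1:**
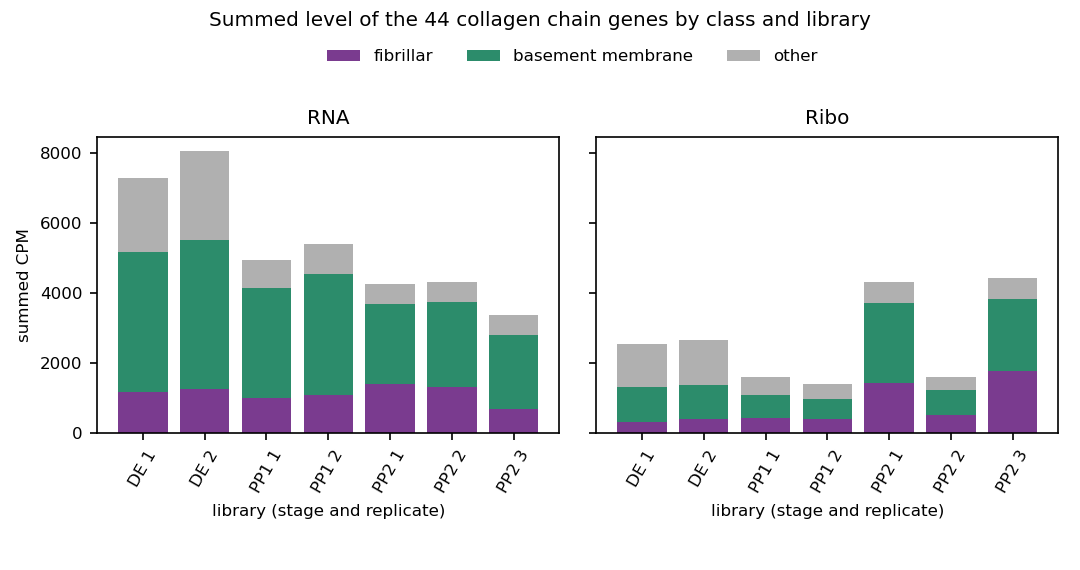
Summed CPM of the 44 collagen chain genes in each RNA library (left) and Ribo library (right), stacked by class, with no error bars since each bar is 1 library. In RNA the DE bars are the tallest at 7286 and 8055 CPM, and in Ribo PP2 replicates 1 and 3 reach 4323 and 4438 CPM while PP2 replicate 2 reaches 1611 CPM.

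Scaled by the gene length in the count table, the leading chains differed from stage to stage. In RNA the highest level per kilobase was that of COL6A1 at DE (190.8 CPM per kb), COL18A1 at PP1 (68.5 CPM per kb) and COL2A1 at PP2 (97.8 CPM per kb). In Ribo it was that of COL6A1 at DE (83.5 CPM per kb), COL6A1 at PP1 (30.9 CPM per kb) and COL2A1 at PP2 (100.5 CPM per kb). COL18A1 ranked second or higher in RNA at PP1 and PP2 and in Ribo at PP1 and PP2. The order depends on these lengths, such as 14662 bases for COL4A1 and 5343 for COL6A1, which are not coding lengths. Without scaling, the highest RNA mean was that of COL4A1 at DE (1630 CPM) and of COL4A2 at PP1 (962 CPM) and PP2 (666 CPM). In Ribo it was that of COL6A1 at DE (446 CPM) and of COL18A1 at PP1 (191 CPM) and PP2 (716 CPM).

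Of the 44 genes, 41 passed the low-count filter in RNA, 38 in Ribo and 37 in both, and a gene was called at an adjusted p under 0.05 in edgeR's quasi-likelihood test with Benjamini-Hochberg adjustment over all genes tested. Every change below is a log2 fold change of the first-named stage over the second, given ± its standard error. In RNA, 8 higher and 14 lower genes were called at PP1 against DE, where 24.3% of all genes tested were called, 12.3% higher and 12.0% lower. PP2 against PP1 gave 7 higher and 16 lower (18.4% of all genes, 7.79% higher and 10.6% lower), and PP2 against DE gave 10 higher and 16 lower (33.5%, 16.4% higher and 17.1% lower). The shares of collagen genes called were 53.7%, 56.1% and 63.4%, each above the share of all genes. Without RNA PP2 replicate 3 the counts were 15 higher and 16 lower, 9 higher and 22 lower and 10 higher and 18 lower in the same order of comparisons, where 49.8%, 41.4% and 52.5% of all genes tested were called.

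Ribo gave fewer calls. At PP1 against DE, 1 higher and 4 lower genes were called (7.54% of all genes tested, 4.53% higher and 3.01% lower). The numbers were, at PP2 against PP1, 3 higher and 1 lower (5.01%, 2.16% higher and 2.85% lower) and, at PP2 against DE, 8 higher and 13 lower (27.6%, 13.1% higher and 14.5% lower). Without Ribo PP2 replicate 2 the counts were 4 higher and 10 lower, 14 higher and 4 lower and 15 higher and 14 lower, where 15.1%, 23.6% and 46.4% of all genes tested were called. The comparisons share stages, PP2 against DE being the sum of the other 2 changes, so they are not independent of each other.

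By class, the basement membrane chains had no gene called higher in RNA in any of the 3 comparisons, with 2 of 8 lower at PP1 against DE, 3 of 8 lower at PP2 against PP1 and 5 of 8 lower at PP2 against DE. Of all genes tested, 12.0%, 10.6% and 17.1% were called lower and 12.3%, 7.79% and 16.4% higher. The share called at PP1 against DE, 25%, was near the 24.3% of all genes called in either direction. The 10 fibrillar chains tested split 5 higher and 2 lower at PP2 against DE, with a median log2 fold change of 0.42. The 23 other chains tested split 5 higher and 9 lower, with a median of -0.42. The median of all genes tested was 0.05, and placing COL3A1, which had no RNA count at DE, at its bound left the fibrillar median at 0.42. In Ribo the basement membrane medians were -0.74 at PP1 against DE, 0.73 at PP2 against PP1 and 0.15 at PP2 against DE. The medians of all genes there were -0.04, 0.04 and 0.03. At PP2 against DE in Ribo, 1 basement membrane chain was called higher and 2 lower, beside 13.1% and 14.5% of all genes.

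**Figure D2:**
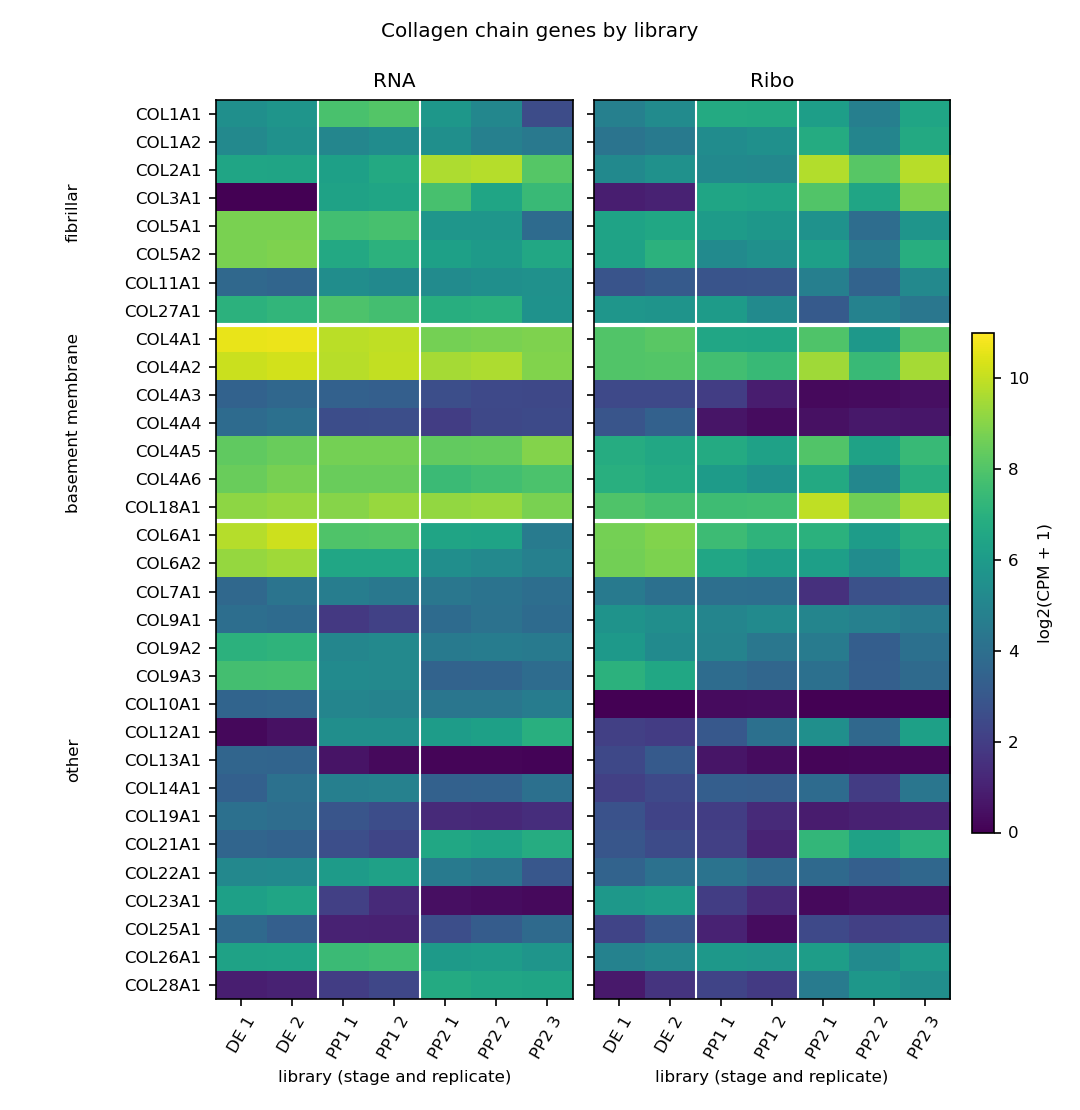
Level of the 32 collagen chain genes that reached a stage mean of 10 CPM, as log2(CPM + 1) by colour, with a column for each RNA library (left) and Ribo library (right) and white lines between stages and classes. COL6A1, COL6A2, COL9A3 and COL23A1 are brightest at DE, COL2A1, COL21A1 and COL28A1 at PP2, and COL3A1 and COL12A1 are dark in DE RNA.

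Type IV collagen chains assemble as COL4A1 with COL4A2 in most basement membranes, and as COL4A3 with COL4A4 and COL4A5, or COL4A5 with COL4A6, in more restricted ones. The 6 genes lie as 3 pairs that are transcribed away from each other. In RefSeq coordinates of GRCh38.p14, the start sites of COL4A1 and COL4A2 lie 127 bases apart on chromosome 13, those of COL4A4 and COL4A3 lie 419 bases apart on chromosome 2, and those of COL4A6 and COL4A5 lie 380 bases apart on chromosome X, with a second COL4A6 start 1416 bases from that of COL4A5. For COL4A4 this is the start site at 227164205, while the span of the gene reaches 227164488, nearer to COL4A3. No window was taken for that outer end of COL4A4. The windows of the pairs are shown because the partners of each pair share upstream sequence, and their levels are compared with each other. Each RefSeq window runs from 250 bases before to 50 after the start site, on the strand of the gene, and capitals mark CCAAT and the GC box GGGCGG on either strand, so that ATTGG and CCGCCC are their reverse strand forms.
COL4A1: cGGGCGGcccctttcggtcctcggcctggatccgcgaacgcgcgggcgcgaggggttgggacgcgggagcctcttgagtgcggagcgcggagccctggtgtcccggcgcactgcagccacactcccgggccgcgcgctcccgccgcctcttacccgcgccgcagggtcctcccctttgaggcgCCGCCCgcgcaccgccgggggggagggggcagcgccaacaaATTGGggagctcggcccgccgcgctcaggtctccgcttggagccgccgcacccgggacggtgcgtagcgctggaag
COL4A2: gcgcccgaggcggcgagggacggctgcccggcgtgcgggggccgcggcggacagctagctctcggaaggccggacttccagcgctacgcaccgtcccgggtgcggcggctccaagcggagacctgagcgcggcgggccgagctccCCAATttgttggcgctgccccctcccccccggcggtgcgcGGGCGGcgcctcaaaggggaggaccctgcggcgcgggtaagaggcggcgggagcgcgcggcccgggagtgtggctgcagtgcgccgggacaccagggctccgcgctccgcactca
COL4A3: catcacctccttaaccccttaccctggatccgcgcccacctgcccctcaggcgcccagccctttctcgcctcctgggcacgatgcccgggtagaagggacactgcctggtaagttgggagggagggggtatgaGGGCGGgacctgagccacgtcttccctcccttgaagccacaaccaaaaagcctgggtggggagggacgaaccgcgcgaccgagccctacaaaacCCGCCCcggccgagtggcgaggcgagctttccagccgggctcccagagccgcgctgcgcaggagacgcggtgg
COL4A4: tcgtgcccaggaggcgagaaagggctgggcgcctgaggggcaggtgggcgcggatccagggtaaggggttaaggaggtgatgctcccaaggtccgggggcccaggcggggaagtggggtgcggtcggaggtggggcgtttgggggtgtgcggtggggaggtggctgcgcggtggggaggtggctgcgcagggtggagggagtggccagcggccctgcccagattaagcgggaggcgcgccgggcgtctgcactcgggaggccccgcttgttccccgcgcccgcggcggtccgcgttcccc
COL4A5: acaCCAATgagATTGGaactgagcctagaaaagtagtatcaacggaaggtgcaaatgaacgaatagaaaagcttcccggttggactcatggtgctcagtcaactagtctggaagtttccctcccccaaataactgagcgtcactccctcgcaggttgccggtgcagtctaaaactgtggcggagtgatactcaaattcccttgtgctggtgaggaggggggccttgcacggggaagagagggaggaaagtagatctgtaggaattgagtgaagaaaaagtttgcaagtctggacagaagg
COL4A6: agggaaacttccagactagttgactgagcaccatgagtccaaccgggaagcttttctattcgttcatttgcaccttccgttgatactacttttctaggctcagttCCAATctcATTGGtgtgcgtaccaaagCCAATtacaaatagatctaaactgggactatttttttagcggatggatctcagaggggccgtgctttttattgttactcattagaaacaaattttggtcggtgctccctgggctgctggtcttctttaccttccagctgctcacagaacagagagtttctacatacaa
The windows cover chr13:110307108-110307407 (minus strand) for COL4A1, chr13:110307034-110307333 (plus) for COL4A2, chr2:227164374-227164673 (plus) for COL4A3, chr2:227164156-227164455 (minus) for COL4A4, chrX:108439588-108439887 (plus) for COL4A5 and chrX:108439409-108439708 (minus) for COL4A6. Counted from the start site, COL4A2 has a CCAAT at -105 and a GC box at -65, and the same bases read as CCAAT at -26 and a GC box at -67 on the reverse strand of the COL4A1 window, which holds another GC box at -249. COL4A3 has 2 GC boxes, this start of COL4A4 neither motif, and COL4A5 and this start of COL4A6 have CCAAT copies only, 2 and 3 of them, in part the same bases. Over all 35116 RefSeq windows of this length, 34.6% held CCAAT and 45.0% held GGGCGG, and 32 of the 44 collagen genes had a window. No TATAAA was found in the 6 windows printed, against 11.5% of all windows, which says only that these letters are not in them. The GC content was 77.7% and 76.7% for COL4A2 and COL4A1, 67.7% and 74.0% for COL4A3 and COL4A4, and 49.3% and 43.7% for COL4A5 and COL4A6, against a median of 58.7% over all windows.

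COL4A1 (chr13:110148963-110307157), the major chain of the common type IV network, had RNA levels of 1605 and 1654 CPM at DE, 921 and 982 CPM at PP1 and 413, 445 and 463 CPM at PP2, so that no stage overlapped another. It fell at every step, with log2 fold changes of -0.78 ± 0.19 (adjusted p = 0.0212) at PP1 against DE, -1.11 ± 0.17 (adjusted p = 0.00428) at PP2 against PP1 and -1.89 ± 0.17 (adjusted p = 1.14e-04) at PP2 against DE. In Ribo it had 254 and 287 CPM at DE, 91.1 and 86.8 CPM at PP1 and 247, 57.8 and 274 CPM at PP2, and no Ribo comparison passed. COL4A2 (chr13:110307284-110513209), its partner chain, had RNA levels of 1111 and 1199 CPM at DE, 903 and 1021 CPM at PP1 and 729, 793 and 476 CPM at PP2. It fell at PP2 against DE, with a log2 fold change of -0.795 ± 0.24 (adjusted p = 0.0367), and did not pass at PP1 against DE (-0.26, adjusted p = 0.538). In Ribo COL4A2 had 259 and 264 CPM at DE, 201 and 170.3 CPM at PP1 and 683, 174 and 728 CPM at PP2, with PP2 replicate 2 within the range of the earlier stages.

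Since partner chains are counted in the same library, their ratio does not depend on how libraries are scaled. The count of COL4A2 over that of COL4A1 was 0.693 and 0.725 in RNA at DE, 0.9802 and 1.04 at PP1 and 1.77, 1.78 and 1.03 at PP2. In Ribo it was 1.02 and 0.9201 at DE, 2.21 and 1.96 at PP1 and 2.77, 3.02 and 2.66 at PP2. The ratio was higher in every progenitor library than in every DE library in each assay, and in Ribo the 3 stages did not overlap. RNA PP2 replicate 3 was the exception to the order of the stages, with a ratio inside the PP1 range.

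COL4A5 (chrX:108439838-108697545), the chain shared by the restricted networks, had RNA levels of 316 and 353 CPM at DE, 421 and 419 CPM at PP1 and 329.9, 339 and 503 CPM at PP2, and passed in no RNA or Ribo comparison. Its Ribo levels were 109.8 and 95.2 CPM at DE, 105 and 76.6 CPM at PP1 and 256, 80.6 and 171 CPM at PP2. COL4A6 (chrX:108155614-108439458), its divergent partner, had RNA levels of 354 and 422 CPM at DE, 355 and 363 CPM at PP1 and 182, 204 and 233 CPM at PP2. It fell at PP2, with log2 fold changes of -0.799 ± 0.19 (adjusted p = 0.0214) against PP1 and -0.91 ± 0.19 (adjusted p = 0.00638) against DE, and its PP2 libraries lay below all the others. Its Ribo levels of 121 and 104 CPM at DE, 65.1 and 48 CPM at PP1 and 102, 33 and 116 CPM at PP2 overlapped between PP2 and both earlier stages, and no Ribo comparison passed. The ratio of COL4A5 to COL4A6 counts was 0.893 and 0.836 in RNA at DE, 1.19 and 1.15 at PP1 and 1.81, 1.66 and 2.16 at PP2, with no overlap between stages. In Ribo it was 0.911 and 0.918, 1.61 and 1.596 and 2.502, 2.44 and 1.47 at the same stages, where PP2 replicate 3 fell below the PP1 libraries.

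COL4A3 (chr2:227164624-227314792) and COL4A4 (chr2:226967360-227164488), the chains best known from the glomerular basement membrane of the kidney, were expressed far lower. COL4A3 had RNA levels of 9.95 and 11.6 CPM at DE, 9.58 and 9.18 CPM at PP1 and 5.26, 4.33 and 4.19 CPM at PP2, and its PP2 libraries lay below the rest. It fell at PP2, with log2 fold changes of -1.03 ± 0.21 (adjusted p = 0.0124) against PP1 and -1.23 ± 0.21 (adjusted p = 0.00258) against DE. Its Ribo levels were 4.41 and 4.33 CPM at DE, 2.95 and 0.868 CPM at PP1 and 0.228, 0.258 and 0.3597 CPM at PP2, and the Ribo log2 fold change at PP2 against DE was -3.92 ± 0.89 (adjusted p = 0.00979), resting on 9, 2 and 5 counts at PP2 against 25 and 24 at DE. COL4A4 had RNA levels of 13.4 and 15.9 CPM at DE, 4.99 and 5.24 CPM at PP1 and 2.97, 4.18 and 4.51 CPM at PP2. It fell in RNA at PP1 against DE, with a log2 fold change of -1.52 ± 0.27 (adjusted p = 0.00436) and at PP2 against DE, with -1.91 ± 0.24 (adjusted p = 5.25e-04). In Ribo COL4A4 had 6.36 and 9.74 CPM at DE, 0.536 and 0.289 CPM at PP1 and 0.405, 0.645 and 0.576 CPM at PP2 and fell at PP1 (adjusted p = 0.0231) and PP2 (-3.905 ± 0.73, adjusted p = 0.00388), both against DE. The PP1 libraries held 3 COL4A4 counts in all against 90 at DE, a DE to PP1 ratio of 19.2 with an exact 95% counting interval of 6.38 to 95.1. The ratio of COL4A3 to COL4A4 counts was 0.7401 and 0.729 in RNA at DE, 1.92 and 1.75 at PP1 and 1.77, 1.04 and 0.929 at PP2, with every progenitor library above the DE libraries. In Ribo it was 0.562, 0.4 and 0.625 at PP2 and 0.694 and 0.444 at DE, which overlapped, and the PP1 libraries held too few counts for a ratio. The 3′ part of COL4A4 overlaps RHBDD1 on the other strand, and the strand setting of the counting was not given in the sources used here.

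COL18A1 (chr21:45405165-45513720), the heparan sulphate collagen whose C-terminal part is endostatin, had nearly level RNA at 559 and 609 CPM at DE, 519 and 639.8 CPM at PP1 and 594, 634 and 441 CPM at PP2, with overlapping stages and no RNA call. In Ribo it had 248 and 214 CPM at DE, 189 and 194 CPM at PP1 and 991, 394 and 762 CPM at PP2, and all 3 PP2 libraries lay above the DE and PP1 libraries. It rose in Ribo at PP2 against DE, with a log2 fold change of 1.63 ± 0.502 (adjusted p = 0.0345). COL15A1, the related chain of type XV collagen, stayed at or below a stage mean of 2.10 CPM and was not called.

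Several of these calls rested on few libraries. The COL4A1 call at PP1 against DE was lost without any 1 of the 4 libraries compared (adjusted p = 0.118, 0.133, 0.162 and 0.117 without DE 1, DE 2, PP1 1 and PP1 2). That at PP2 against PP1 was lost without PP1 replicate 2 (0.0587). The COL4A2 RNA call was lost without either DE library, either PP1 library or PP2 replicate 1 (highest adjusted p = 0.193, without DE replicate 2). COL4A6 at PP2 against DE was lost without DE replicate 2 (0.0852). At PP2 against PP1, COL4A6 was lost without any library but PP2 replicate 3 (highest 0.148). COL4A3 was lost without either PP1 library (0.0999 and 0.0835). In Ribo, COL4A4 at PP1 was lost without any 1 of the 4 libraries compared (highest 0.217). At PP2 in Ribo, COL4A3 and COL4A4 were lost without DE replicate 2 (0.0528 and 0.0542), COL4A3 also without DE replicate 1 (0.0538). COL18A1 was lost without any library but PP2 replicates 1 and 2 (highest 0.19).

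**Figure D3:**
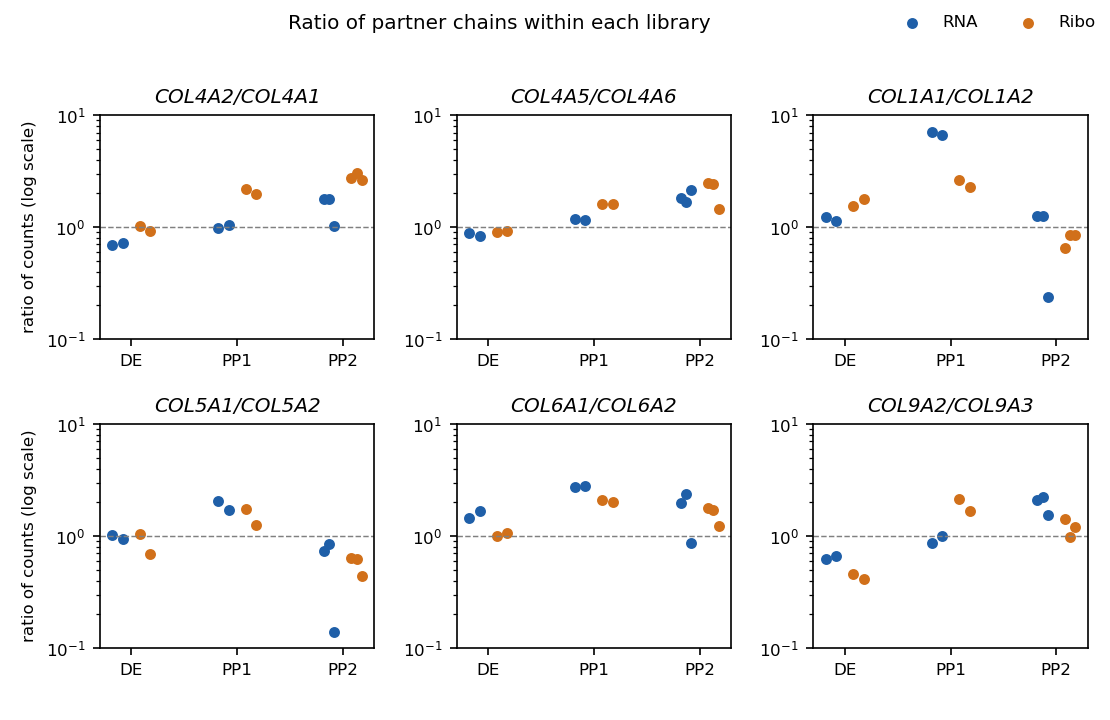
Ratio of the counts of partner chains within each library on a log scale, by stage, with 1 point per library, RNA in blue and Ribo in orange, and a dashed line at equal counts. COL4A2/COL4A1 climbs through the stages, to 1.77 and 1.78 in RNA PP2 replicates 1 and 2, COL1A1/COL1A2 peaks in PP1 RNA at 7.03 and 6.69, and RNA PP2 replicate 3 lies below the other PP2 RNA libraries in 5 of the 6 panels.

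Among fibrillar chains, COL3A1 (chr2:188974373-189012746), the only chain of type III collagen, appeared between DE and PP1. It had 0 and 0 RNA counts at DE, 79.3 and 88.7 CPM at PP1 and 225, 87.8 and 175 CPM at PP2. With 3 counts taken as the limit over the DE group, RNA was at least 902-fold higher at PP1 and at least 1730-fold higher at PP2 than at DE (adjusted p = 9.03e-05 and 3.75e-05). In Ribo it had 0.883 and 1.08 CPM at DE, 86.5 and 82.99 CPM at PP1 and 261, 88.3 and 457 CPM at PP2, with log2 fold changes of 6.42 ± 0.83 (adjusted p = 9.25e-04) at PP1 and 8.08 ± 0.86 (adjusted p = 1.41e-04) at PP2, both against DE. Without Ribo PP2 replicate 3 the last of these was 7.46. PP2 against PP1 did not pass in RNA (0.95, adjusted p = 0.124) or Ribo (1.67, adjusted p = 0.122).

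COL2A1 (chr12:47972967-48006212), the chain of type II collagen known from cartilage and from early embryonic epithelia, was the fibrillar chain with the highest level at PP2. Its RNA levels were 87.1 and 84.9 CPM at DE, 74.3 and 102 CPM at PP1 and 797, 885 and 273 CPM at PP2, and every PP2 library lay above the earlier ones although replicate 3 was well below the other two. Ribo levels were 35.8 and 46.9 CPM at DE, 35.9 and 33.8 CPM at PP1 and 837, 281 and 891 CPM at PP2, with PP2 replicate 2 the low library. It rose at PP2 in RNA, with log2 fold changes of 2.88 ± 0.49 (adjusted p = 0.00626) against PP1 and 2.92 ± 0.49 (adjusted p = 0.0026) against DE. The Ribo changes were 4.26 ± 0.62 (adjusted p = 0.00557) against PP1 and 4.02 ± 0.61 (adjusted p = 0.00124) against DE. Against PP1 the calls were lost without either PP1 library, in RNA (adjusted p = 0.0858 and 0.0566) and in Ribo (0.113 and 0.0887).

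COL11A1 (chr1:102876473-103108522), a chain that forms fibrils together with type II collagen, had RNA levels of 12.3 and 10.9 CPM at DE, 41.3 and 36.1 CPM at PP1 and 38.5, 43.4 and 45.7 CPM at PP2. It rose in RNA at PP1 against DE (1.73 ± 0.19, adjusted p = 4.35e-04) and at PP2 against DE (1.87 ± 0.18, adjusted p = 1.57e-04), and every progenitor library lay above the DE libraries. Its Ribo levels of 6.18 and 7.76 CPM at DE, 6.16 and 6.36 CPM at PP1 and 26.2, 10.3 and 34.7 CPM at PP2 were higher at PP2 against DE (1.77 ± 0.52, adjusted p = 0.0282). That call was lost (adjusted p = 0.134, 0.0906 and 0.117) without DE replicate 1, DE replicate 2 and PP2 replicate 3 in turn. The lower expressed fibrillar chains COL11A2 and COL24A1, each at or below a stage mean of 3.99 CPM, were also called higher in RNA at PP2 against DE (log2 fold changes 1.26 and 3.901). COL24A1 was called at PP2 against PP1 as well (1.83).

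COL1A1 (chr17:50184101-50201631) and COL1A2 (chr7:94394895-94431227) encode the chains of type I collagen, of which COL1A1 takes the larger part in the usual molecule. COL1A1 had RNA levels of 43.2 and 52.7 CPM at DE, 227 and 263 CPM at PP1 and 55.99, 33.2 and 4.92 CPM at PP2, highest at PP1 and spread widely at PP2. It fell at PP2 against PP1, with a log2 fold change of -2.97 ± 0.73 (adjusted p = 0.0268), and did not pass at PP1 against DE (2.35, adjusted p = 0.0758). Its Ribo levels were 27.01 and 39.1 CPM at DE, 103 and 101 CPM at PP1 and 70.6, 26.2 and 87.2 CPM at PP2, and no Ribo comparison passed. COL1A2 had RNA levels of 35.2 and 46.6 CPM at DE, 32.4 and 39.3 CPM at PP1 and 44.2, 26.3 and 20.9 CPM at PP2, with overlapping stages and no RNA call. Its Ribo levels were 17.7 and 22 CPM at DE, 39.4 and 44.5 CPM at PP1 and 109, 30.9 and 102 CPM at PP2, and every PP2 library lay above the DE libraries, with a log2 fold change of 2.03 ± 0.51 (adjusted p = 0.0156). The ratio of COL1A1 to COL1A2 counts in RNA was 1.23 and 1.13 at DE, 7.03 and 6.69 at PP1 and 1.27, 1.26 and 0.236 at PP2. The Ribo ratio was 1.53 and 1.78, 2.63 and 2.27 and 0.649, 0.846 and 0.852 at the same stages, so that PP1 was highest in each assay, and the 3 Ribo PP2 libraries lay below the DE libraries.

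COL5A1 (chr9:134641803-134844843) and COL5A2 (chr2:189031898-189441111) encode type V collagen, which starts and limits the growth of type I fibrils. COL5A1 had RNA levels of 443 and 437 CPM at DE, 202 and 223 CPM at PP1 and 54.7, 53.6 and 13.4 CPM at PP2, with no overlap between stages. It fell at PP2, with log2 fold changes of -2.39 ± 0.495 (adjusted p = 0.0137) against PP1 and -3.44 ± 0.51 (adjusted p = 0.00132) against DE. COL5A2 had RNA levels of 434 and 468 CPM at DE, 98.9 and 132 CPM at PP1 and 74.4, 62.8 and 96.9 CPM at PP2, with every DE library above the rest. It fell against DE, with log2 fold changes of -1.97 ± 0.26 (adjusted p = 0.00114) at PP1 and -2.53 ± 0.23 (adjusted p = 1.12e-04) at PP2. In Ribo, COL5A1 had 83.5 and 92.7 CPM at DE, 65.1 and 56.1 CPM at PP1 and 47.5, 14.4 and 51.6 CPM at PP2. COL5A2 had 79.5 and 135 CPM at DE, 36.98 and 45.1 CPM at PP1 and 74.1, 23.2 and 117 CPM at PP2, and neither chain passed in Ribo. The ratio of COL5A1 to COL5A2 in RNA was 1.02 and 0.935 at DE, 2.04 and 1.69 at PP1 and 0.735, 0.854 and 0.139 at PP2.

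COL27A1 (chr9:114154098-114312511), a short-helix fibrillar chain known from cartilage, had RNA levels of 132 and 150.1 CPM at DE, 240.3 and 209 CPM at PP1 and 118, 127 and 48.5 CPM at PP2 and no RNA call. Its Ribo levels of 53.7 and 51.2 CPM at DE, 65.4 and 37.6 CPM at PP1 and 7.79, 28.1 and 19.5 CPM at PP2 were lower in every PP2 library than in any earlier one, with a log2 fold change of -1.52 ± 0.47 (adjusted p = 0.0359) at PP2 against DE. COL5A3, the third type V chain, stayed at or below a stage mean of 1.78 CPM and was not tested in either assay.

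Among the fibrillar calls, COL1A1 at PP2 against PP1 was lost without either DE library, either PP1 library or PP2 replicate 2 (highest adjusted p = 0.123, without PP1 replicate 2), and its log2 fold change was -3.68 without PP2 replicate 1. COL5A1 at PP2 against PP1 was lost without either PP1 library (0.0768 and 0.0859). COL11A2 was lost without DE replicate 1, DE replicate 2 or PP2 replicate 2 (highest 0.132). COL24A1 at PP2 against PP1 was lost without any of 4 libraries, PP1 replicates 1 and 2 and PP2 replicates 1 and 2 (highest 0.272). Against DE its value was 3.04 without DE replicate 1 and 5.87 without DE replicate 2. In Ribo at PP2 against DE, COL1A2 was lost without DE replicate 1, DE replicate 2 or PP2 replicate 3 (highest 0.109). COL27A1 was lost without any library but PP2 replicates 1 and 2 (highest 0.136).

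**Figure D4:**
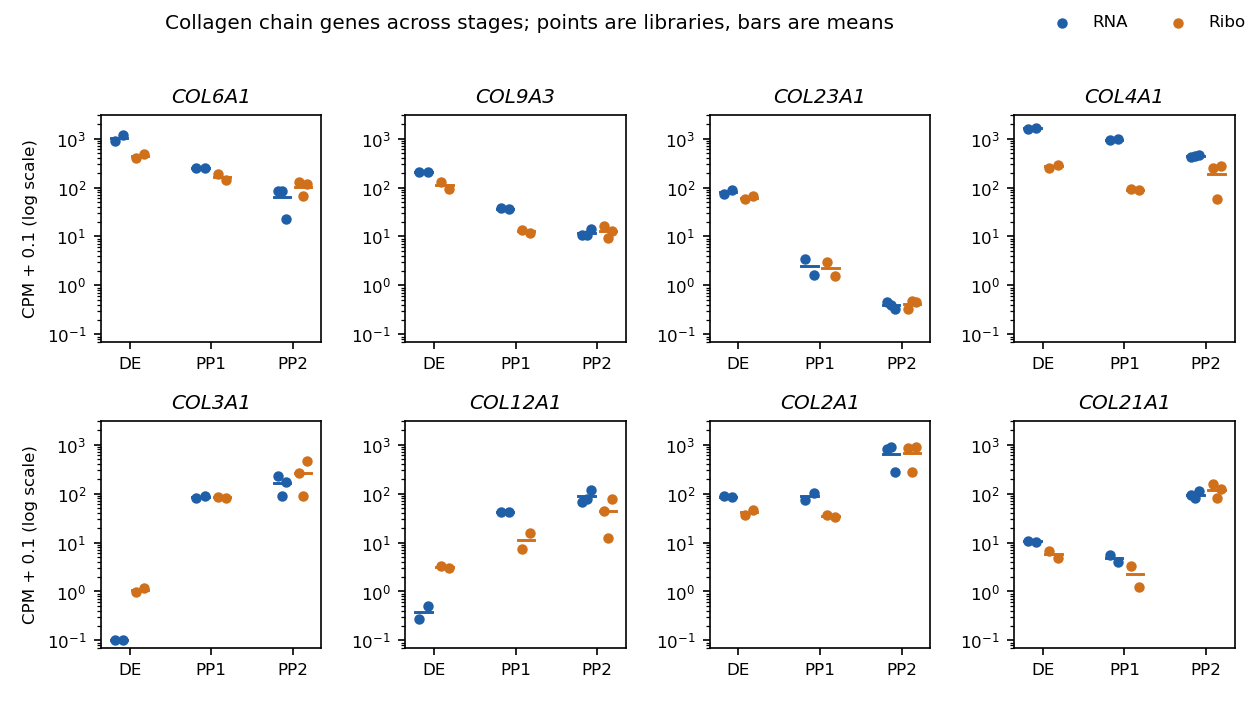
CPM plus 0.1 on a log scale for 8 collagen chain genes by stage, with 1 point per library, a bar at the group mean, RNA in blue and Ribo in orange. COL6A1, COL9A3, COL23A1 and COL4A1 in the upper panels have their highest RNA points at DE, and COL3A1, COL12A1, COL2A1 and COL21A1 in the lower panels have their highest at PP2.

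Type VI collagen is the beaded filament collagen, built from COL6A1, COL6A2 and a larger chain such as COL6A3, and the first pair fell at each step in RNA. COL6A1 (chr21:45981770-46005048) had RNA levels of 882 and 1157 CPM at DE, 247 and 254 CPM at PP1 and 84.1, 82.9 and 23.1 CPM at PP2. COL6A2 (chr21:46098112-46132848) had 604 and 697 CPM at DE, 89.1 and 91.4 CPM at PP1 and 42.8, 35.2 and 26.4 CPM at PP2, with no overlap between stages for either. COL6A1 fell, with log2 fold changes of -2.03 ± 0.54 (adjusted p = 0.0269) at PP1 against DE, -1.98 ± 0.47 (adjusted p = 0.0233) at PP2 against PP1 and -4.01 ± 0.498 (adjusted p = 5.34e-04) at PP2 against DE. COL6A2 fell, with log2 fold changes of -2.85 ± 0.27 (adjusted p = 1.70e-04), -1.37 ± 0.22 (adjusted p = 0.00516) and -4.22 ± 0.24 (adjusted p = 1.04e-05) in the same comparisons. The Ribo levels of COL6A1 were 409.6 and 483 CPM at DE, 188 and 143 CPM at PP1 and 128, 67.3 and 119 CPM at PP2, and its Ribo log2 fold change at PP2 against DE was -2.09 ± 0.41 (adjusted p = 0.00466). The Ribo levels of COL6A2 were 408 and 454 CPM at DE, 90.03 and 71.1 CPM at PP1 and 72.4, 39.6 and 96.4 CPM at PP2, with changes of -2.42 ± 0.49 (adjusted p = 0.0131) at PP1 against DE and -2.63 ± 0.43 (adjusted p = 0.00176) at PP2 against DE. RNA PP2 replicate 3 was the lowest library for both genes.

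COL6A3, the usual larger chain, was scarce at every stage. It had RNA levels of 0.415 and 0.398 CPM at DE, 5.34 and 4.72 CPM at PP1 and 5.42, 1.73 and 1.75 CPM at PP2, from 0.000344 to 0.0757 of the COL6A1 count of the same library, and was called higher at PP1 (3.605 ± 0.69, adjusted p = 0.00628) and PP2 (2.84 ± 0.66, adjusted p = 0.0116) against DE. Its alternatives COL6A5 and COL6A6 stayed at or below stage means of 1.12 and 5.51 CPM and were not called. The ratio of COL6A1 to COL6A2 in RNA was 1.46 and 1.66 at DE, 2.77 and 2.78 at PP1 and 1.97, 2.36 and 0.873 at PP2. For type VI, COL6A1 at PP1 against DE was lost without any 1 of the 4 libraries compared (highest adjusted p = 0.154, without PP1 replicate 1). At PP2 against PP1, COL6A1 and COL6A2 were lost without either PP1 library (highest 0.121 and 0.0544). COL6A3 was lost without either DE library at both stages (highest 0.0839), and its PP2 value was 2.09 without PP2 replicate 1. In Ribo, COL6A1 was lost without DE replicate 2 (0.0519), and COL6A2 at PP1 without any 1 of the 4 libraries compared (highest 0.213).

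The fibril-associated chains moved in opposite directions. Type IX collagen, which coats type II fibrils as a trimer of COL9A1, COL9A2 and COL9A3, did not move as a unit. COL9A2 (chr1:40300489-40317286) had RNA levels of 131 and 142 CPM at DE, 32.6 and 35.4 CPM at PP1 and 22.1, 23.9 and 21.8 CPM at PP2. COL9A3 (chr20:62816213-62841159) had 211 and 212 CPM at DE, 37.9 and 35.4 CPM at PP1 and 10.4, 10.7 and 14.03 CPM at PP2, with DE above all other libraries. COL9A2 fell against DE, with log2 fold changes of -2.01 ± 0.18 (adjusted p = 1.36e-04) at PP1 and -2.59 ± 0.16 (adjusted p = 1.35e-05) at PP2, and COL9A3 with -2.53 ± 0.21 (adjusted p = 1.08e-04) and -4.17 ± 0.196 (adjusted p = 5.56e-06). COL9A3 also fell at PP2 against PP1 (-1.64 ± 0.19, adjusted p = 0.00111), as did COL9A2 (-0.59 ± 0.16, adjusted p = 0.0355). COL9A1 (chr6:70215061-70303084), by contrast, dipped at PP1, with RNA levels of 14.6 and 13.5 CPM at DE, 2.53 and 3.37 CPM at PP1 and 13.2, 16.96 and 13.5 CPM at PP2. Its log2 fold changes were -2.24 ± 0.25 (adjusted p = 4.69e-04) at PP1 against DE and 2.29 ± 0.24 (adjusted p = 8.56e-04) at PP2 against PP1, while PP2 and DE overlapped.

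Ribo levels of the type IX chains were 48.9 and 41.8 CPM at DE, 31.3 and 37.6 CPM at PP1 and 31.4, 26.9 and 21.8 CPM at PP2 for COL9A1, with no Ribo call. COL9A2 had 60.2 and 37.9 CPM at DE, 29.2 and 19.4 CPM at PP1 and 22.8, 8.895 and 15.8 CPM at PP2, a log2 fold change of -1.62 ± 0.42 (adjusted p = 0.0172) at PP2 against DE. COL9A3 had 132 and 91.6 CPM at DE, 13.7 and 11.6 CPM at PP1 and 15.9, 9.15 and 13.02 CPM at PP2, with -3.15 ± 0.41 (adjusted p = 9.99e-04) at PP1 and -3.13 ± 0.35 (adjusted p = 1.83e-04) at PP2, both against DE. The ratio of COL9A2 to COL9A3 in RNA was 0.624 and 0.669 at DE, 0.859 and 0.999 at PP1 and 2.12, 2.23 and 1.56 at PP2, with no overlap between stages. The ratio of COL9A1 to COL9A3 in RNA was 0.0695 and 0.0635, 0.0668 and 0.0952 and 1.27, 1.58 and 0.961, so that only at PP2 were the counts of the chains of similar size.

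COL12A1 (chr6:75084326-75206053), a large chain that links type I fibrils to their surroundings, was near absent in DE RNA. It had RNA levels of 0.178 and 0.398 CPM at DE, 41.9 and 42.3 CPM at PP1 and 66.6, 75.9 and 121 CPM at PP2. Ribo levels of COL12A1 were 3.18 and 2.89 CPM at DE, 7.23 and 15.6 CPM at PP1 and 43.5, 11.99 and 75.7 CPM at PP2. In RNA it rose, with log2 fold changes of 7.18 ± 0.46 (adjusted p = 3.44e-05) at PP1 against DE, 1.06 ± 0.29 (adjusted p = 0.0378) at PP2 against PP1 and 8.24 ± 0.47 (adjusted p = 1.04e-05) at PP2 against DE. Without RNA DE replicate 2 the changes against DE were 7.83 and 8.89. In Ribo it rose at PP2 against DE (3.85 ± 0.75, adjusted p = 0.0047), a value of 3.20 without PP2 replicate 3.

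COL21A1 (chr6:56056590-56394128), a fibril-associated chain of blood vessel walls, rose at PP2. Its RNA levels were 10.9 and 10.1 CPM at DE, 5.34 and 3.94 CPM at PP1 and 91.6, 82.8 and 112 CPM at PP2 and its Ribo levels 6.71 and 4.69 CPM at DE, 3.22 and 1.16 CPM at PP1 and 154, 79.4 and 124 CPM at PP2, and in each assay all PP2 libraries lay far above the rest. The log2 fold changes at PP2 were 4.37 ± 0.25 (adjusted p = 1.41e-04) in RNA and 5.75 ± 0.57 (adjusted p = 0.00104) in Ribo against PP1, and 3.19 ± 0.23 (adjusted p = 3.37e-05) in RNA and 4.38 ± 0.502 (adjusted p = 2.30e-04) in Ribo against DE. At PP1 against DE it fell in RNA (-1.18 ± 0.24, adjusted p = 0.00836). Without Ribo PP1 replicate 1 the Ribo value against PP1 was 6.74.

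COL14A1 (chr8:120124454-120373573), a chain found on mature fibrils of skin and tendon, had RNA levels of 9.24 and 16.3 CPM at DE, 25.6 and 27.5 CPM at PP1 and 9.69, 9.93 and 15.5 CPM at PP2. Ribo levels of COL14A1 were 3.18 and 4.33 CPM at DE, 8.84 and 8.39 CPM at PP1 and 13.5, 2.84 and 18.8 CPM at PP2. It fell in RNA at PP2 against PP1 (-1.18 ± 0.295, adjusted p = 0.0281). COL19A1 (chr6:69866556-70212468), a rare chain found near basement membranes, had RNA levels of 15.9 and 14.2 CPM at DE, 6.36 and 5.14 CPM at PP1 and 1.46, 1.43 and 1.75 CPM at PP2. Ribo levels of COL19A1 were 5.83 and 3.61 CPM at DE, 2.95 and 1.45 CPM at PP1 and 0.784, 1.03 and 1.15 CPM at PP2. It fell in all 3 RNA comparisons, with log2 fold changes of -1.39 ± 0.24 (adjusted p = 0.00405) at PP1 against DE, -1.89 ± 0.23 (adjusted p = 0.00156) at PP2 against PP1 and -3.28 ± 0.23 (adjusted p = 2.66e-05) at PP2 against DE, and in Ribo at PP2 against DE (-2.25 ± 0.74, adjusted p = 0.0439). COL22A1 (chr8:138588235-138914041), a chain of tissue junctions such as that of muscle and tendon, had RNA levels of 34 and 36.8 CPM at DE, 64.8 and 78.6 CPM at PP1 and 21.2, 17.7 and 7.04 CPM at PP2. Ribo levels of COL22A1 were 10.4 and 16.2 CPM at DE, 17.1 and 12.4 CPM at PP1 and 12.3, 9.15 and 11.7 CPM at PP2. It fell in RNA at PP2, with log2 fold changes of -2.23 ± 0.39 (adjusted p = 0.00666) against PP1 and -1.21 ± 0.39 (adjusted p = 0.0423) against DE. COL16A1, at or below 4.25 CPM, fell in RNA at PP2 against PP1 and DE (-2.41 and -3.13) and in Ribo against DE (-3.08), and COL20A1, at or below 6.31 CPM, fell in Ribo at PP2 against DE (-4.13).

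Of the fibril-associated calls in RNA at PP1 against DE, COL19A1 was lost without PP1 replicate 2 (adjusted p = 0.0505) and COL21A1 without DE replicate 1 or PP1 replicate 2 (0.0678 and 0.0938). At PP2 against PP1, COL9A2 was lost without any library but PP2 replicate 3 (highest 0.24) and COL12A1 without any DE or PP1 library (highest 0.223). COL14A1 was lost without either PP1 library or PP2 replicate 1 or 2 (highest 0.157) and COL22A1 without PP1 replicate 2 (0.061). At PP2 against DE, COL22A1 was lost without any DE or PP1 library or PP2 replicate 2 (highest 0.179). In Ribo at PP2 against DE, COL9A2 was lost without DE replicate 1 or PP2 replicate 3 (0.164 and 0.0614). COL16A1, COL19A1 and COL20A1 were lost in 6, 6 and 4 of the 7 runs with 1 library left out (highest 0.224, 0.227 and 0.155, without DE replicate 2, DE replicate 1 and DE replicate 1). COL20A1 was -6.03 without PP2 replicate 2.

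Of the transmembrane chains, COL23A1 and COL13A1 had their highest levels at DE. COL23A1 (chr5:178237618-178590393), a membrane-spanning chain shed from the cell surface, had RNA levels of 74.2 and 87.9 CPM at DE, 3.28 and 1.504 CPM at PP1 and 0.365, 0.306 and 0.23 CPM at PP2. Ribo levels of COL23A1 were 57.2 and 67.1 CPM at DE, 2.95 and 1.45 CPM at PP1 and 0.228, 0.387 and 0.3597 CPM at PP2, with no overlap between stages in either assay. Its log2 fold changes in RNA were -5.101 ± 0.37 (adjusted p = 5.48e-05) at PP1 against DE, -2.95 ± 0.403 (adjusted p = 0.00243) at PP2 against PP1 and -8.05 ± 0.38 (adjusted p = 5.54e-06) at PP2 against DE. In Ribo they were -4.81 ± 0.498 (adjusted p = 3.12e-04), -2.85 ± 0.53 (adjusted p = 0.0152) and -7.65 ± 0.47 (adjusted p = 7.39e-06) in the same order. It was the collagen gene with the largest fall in each assay at PP2 against DE among those with a mean of 10 CPM at DE. COL13A1 (chr10:69801906-69959144), a transmembrane chain known from the neuromuscular junction, had RNA levels of 10.96 and 10.5 CPM at DE, 0.479 and 0.208 CPM at PP1 and 0.104, 0.102 and 0.092 CPM at PP2, and fell, with log2 fold changes of -4.996 ± 0.399 (adjusted p = 8.55e-05) at PP1 and -6.67 ± 0.39 (adjusted p = 1.13e-05) at PP2 against DE. Its Ribo levels were 4.24 and 7.58 CPM at DE, 0.536 and 0.289 CPM at PP1 and 0.127, 0.129 and 0.144 CPM at PP2, with -5.37 ± 0.91 (adjusted p = 0.00223) at PP2 against DE.

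COL25A1 (chr4:108808725-109302658), a transmembrane chain known from motor innervation and amyloid plaques, dipped at PP1 as COL9A1 did. Its RNA levels were 12.7 and 9.15 CPM at DE, 1.09 and 1.04 CPM at PP1 and 5.31, 8.096 and 13.02 CPM at PP2. Ribo levels of COL25A1 were 3.71 and 6.85 CPM at DE, 1.07 and 0.289 CPM at PP1 and 4.38, 3.22 and 3.67 CPM at PP2. It fell in RNA at PP1 against DE (-3.35 ± 0.47, adjusted p = 0.00138) and rose at PP2 against PP1 (3.04 ± 0.45, adjusted p = 0.00329), and no Ribo comparison passed. COL17A1, the hemidesmosome chain of skin, stayed at or below a stage mean of 7.32 CPM and was called in RNA higher at PP1 against DE (1.37) and lower at PP2 against PP1 (-1.46). Without RNA PP1 replicate 1, COL23A1 was -5.74 at PP1 against DE and -2.31 at PP2 against PP1, and COL13A1 was -5.65 at PP1 against DE. Leaving out either PP1 library or the third PP2 library ended the Ribo call of COL23A1 at PP2 against PP1 (adjusted p = 0.308, 0.0524 and 0.0503). COL17A1 at PP1 was lost without either DE library or PP1 replicate 1 (highest 0.115) and at PP2 without PP1 replicate 1 (0.108).

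Of the remaining chains, COL28A1 (chr7:7338194-7543870), a chain described in peripheral nerve, rose at PP2. It had RNA levels of 0.888 and 1.06 CPM at DE, 2.94 and 4.05 CPM at PP1 and 104, 89.4 and 84.5 CPM at PP2. Ribo levels of COL28A1 were 0.706 and 2.16 CPM at DE, 3.75 and 2.603 CPM at PP1 and 23.2, 56.2 and 42.3 CPM at PP2, with all PP2 libraries above the rest in each assay. In RNA it rose, with log2 fold changes of 1.85 ± 0.27 (adjusted p = 0.00178) at PP1 against DE, 4.72 ± 0.24 (adjusted p = 1.11e-04) at PP2 against PP1 and 6.56 ± 0.28 (adjusted p = 4.17e-06) at PP2 against DE. In Ribo it rose, with log2 fold changes of 3.66 ± 0.58 (adjusted p = 0.00785) against PP1, a call lost without either PP1 library (adjusted p = 0.0803 and 0.0783), and 4.81 ± 0.62 (adjusted p = 4.49e-04) against DE, which was 5.89 without DE replicate 2.

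COL26A1 (chr7:101362388-101559024), a little studied chain first described in testis and ovary, peaked at PP1 in RNA, with RNA levels of 79.5 and 83.4 CPM at DE, 182 and 197 CPM at PP1 and 63.1, 67.4 and 52.1 CPM at PP2. Ribo levels of COL26A1 were 28.6 and 34.1 CPM at DE, 56.5 and 54.4 CPM at PP1 and 69.5, 37.8 and 58.99 CPM at PP2. It rose in RNA at PP1 against DE (1.22 ± 0.197, adjusted p = 0.00289) and fell at PP2 against PP1 (-1.64 ± 0.18, adjusted p = 9.20e-04). No Ribo comparison of COL26A1 passed. COL7A1 (chr3:48564073-48595329), the chain of the anchoring fibrils beneath skin, had RNA levels of 12.1 and 17.8 CPM at DE, 24.1 and 19.97 CPM at PP1 and 19.8, 17.3 and 14.6 CPM at PP2 and no RNA call. Its Ribo levels were 22.4 and 15.5 CPM at DE, 15.3 and 14.7 CPM at PP1 and 1.85, 5.54 and 6.55 CPM at PP2, lower in every PP2 library than in any other, with a log2 fold change of -2.05 ± 0.51 (adjusted p = 0.015) at PP2 against DE, a call lost without DE replicate 1 (0.102).

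COL10A1 (chr6:116118909-116217144), the chain of hypertrophic cartilage, had RNA levels of 10.8 and 11.3 CPM at DE, 31.4 and 29.4 CPM at PP1 and 19.01, 19.04 and 23.9 CPM at PP2 but no more than 1 Ribo count in any library. It was called higher in RNA at PP1 (1.45 ± 0.204, adjusted p = 0.0014) and PP2 (0.896 ± 0.19, adjusted p = 0.00734) against DE, the second call being lost without either DE library (0.0812 and 0.0694). Its whole span lies inside NT5DC1, which is on the other strand, and without a stated strand setting reads of the 2 genes cannot be told apart. The short chains COL8A1 and COL8A2 stayed at or below stage means of 1.62 and 1.59 CPM. COL8A2 was called lower in RNA at PP1 against DE (-2.08), a call lost without any 1 of the 4 libraries compared (highest adjusted p = 0.159).

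Calls that held in each of the 7 runs with 1 library of the assay left out were 15 of 22 in RNA at PP1 against DE, 9 of 23 at PP2 against PP1 and 20 of 26 at PP2 against DE. In Ribo they were 3 of 5, 1 of 4 and 9 of 21 in the same order of comparisons.

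The difference between the Ribo and RNA changes was then tested in 1 fit of all 14 libraries, as the Ribo log2 fold change minus the RNA log2 fold change. At PP1 against DE, no collagen gene of 37 was called (0.269% of all genes tested, 0.0707% higher and 0.198% lower), with 6 at an unadjusted p under 0.05, and DESeq2 called 3. At PP2 against PP1, 1 gene was called lower (0.0777% of all genes, all of them lower) and DESeq2 called 4. At PP2 against DE, 1 higher and 3 lower were called (5.69% of all genes, 2.01% higher and 3.68% lower), and DESeq2 called 11. Of all 14152 genes tested, DESeq2 called 86 higher and 135 lower, 71 and 172, and 903 and 1166 in the 3 comparisons. The median difference of the 37 genes at PP2 against DE was 0.82, against 0.02 over all genes tested, and the medians were 0.37 for fibrillar, 0.82 for basement membrane and 0.82 for the other chains. Without Ribo PP2 replicate 2, 1 higher and 2 lower, 9 higher and 1 lower and 14 higher and 6 lower were called in the 3 comparisons, beside 0.952%, 8.01% and 26.7% of all genes tested. With Ribo PP2 replicates 1 and 3 left out together, the median difference at PP2 against DE was -0.27, against 0.04 over all genes tested, so that the sign of the median rested on those 2 libraries.

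COL1A2 was the gene whose Ribo change exceeded its RNA change at PP2 against DE, with a difference of 2.32 ± 0.62 (adjusted p = 0.0412). It had Ribo levels of 109, 30.9 and 102 CPM at PP2 and 17.7 and 22 CPM at DE, and RNA levels of 44.2, 26.3 and 20.9 CPM at PP2 and 35.2 and 46.6 CPM at DE. COL12A1 went the other way, with a difference of -4.49 ± 0.999 (adjusted p = 0.0217), which rests on 9 RNA and 34 Ribo counts at DE. COL4A3 had a difference of -2.88 ± 0.696 (adjusted p = 0.03) and COL7A1 one of -2.38 ± 0.62 (adjusted p = 0.0388). COL9A1 was called at PP2 against PP1, with a difference of -2.83 ± 0.38 (adjusted p = 0.0128), on 37 and 65 RNA counts and 117 and 130 Ribo counts at PP1. With 1 of the 14 libraries left out in turn, COL1A2 was lost in 10 runs, COL7A1 in 9, COL4A3 in 8, COL12A1 in 4 and COL9A1 in 3. None of the 5 was called when only the stages compared were fitted (adjusted p = 0.0903, 0.097, 0.0632, 0.0529 and 0.0742 in the same order). The difference of COL1A2 was 1.06 (adjusted p = 0.321) with Ribo PP2 replicates 1 and 3 left out together. With 1 library left out the highest adjusted p was 0.175 for COL1A2 without RNA DE replicate 2, 0.133, 0.162 and 0.191 for COL12A1, COL4A3 and COL7A1 without RNA DE replicate 1, and 0.41 for COL9A1 without RNA PP1 replicate 1.

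**Figure D5:**
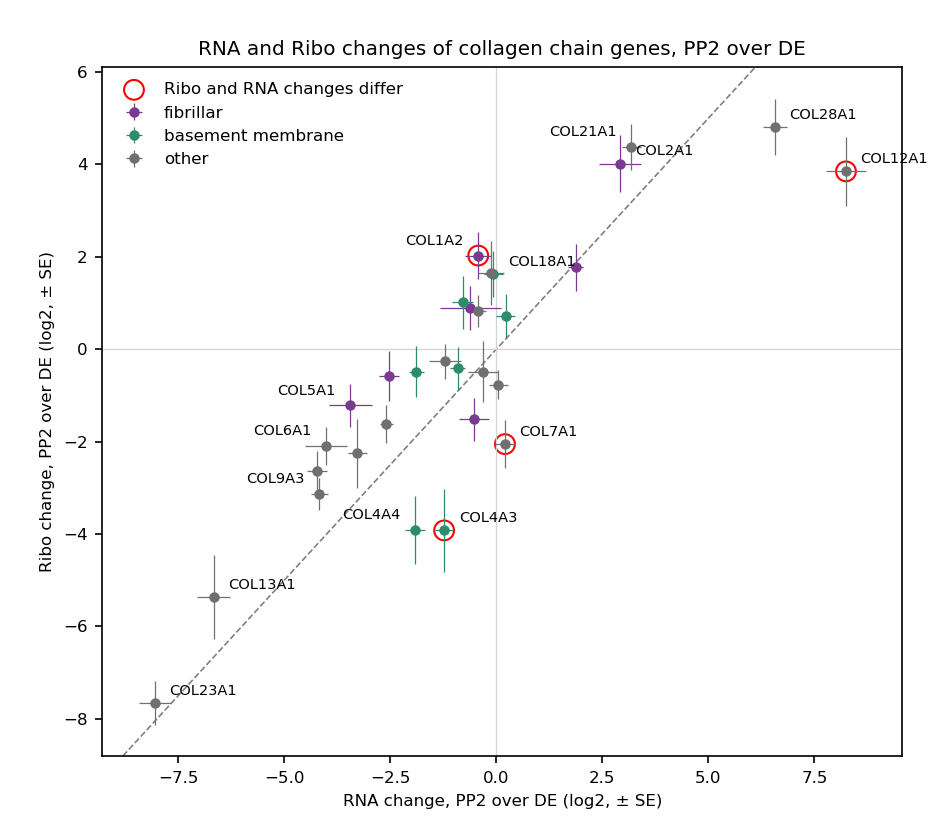
Log2 fold change at PP2 over DE in RNA (horizontal axis) and in Ribo (vertical axis) for 30 collagen chain genes that reached 10 CPM at a stage and passed the filter in each assay, with bars of 1 SE, colour by class, a dashed line of equal change and red rings around the 4 genes whose Ribo and RNA changes differed. COL3A1 is left out since it had no RNA count at DE, and most genes lie on or above the line, with COL1A2 ringed above it and COL7A1, COL4A3 and COL12A1 ringed below.

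The machinery that makes collagen was described with lists of genes written from general knowledge. Of 22 genes for hydroxylation, glycosylation and folding, 4 were called higher and 2 lower in RNA at PP1 against DE, none higher and 11 lower at PP2 against PP1, and 2 higher and 6 lower at PP2 against DE. Of all genes tested, 24.3%, 18.4% and 33.5% were called in these comparisons, so that the list stood near the share of all genes at PP1 and PP2 against DE. The median log2 fold changes were 0.37, -0.79 and -0.38, against medians of all genes of 0.01, 0.00 and 0.05. The fall at PP2 was not seen in Ribo, where the medians were 0.35, 0.46 and 0.96, against -0.04, 0.04 and 0.03. Of the 21 tested in Ribo, 0 higher and 1 lower, 0 and 0, and 2 higher and 1 lower were called. Of all genes tested in Ribo, 7.54%, 5.01% and 27.6% were called. SERPINH1, the collagen chaperone HSP47, had RNA levels of 607 and 687 CPM at DE, 817 and 773 CPM at PP1 and 174, 191 and 281 CPM at PP2. It fell at PP2 against PP1 (-1.88 ± 0.24, adjusted p = 0.00175) and against DE (-1.59 ± 0.24, adjusted p = 0.00137), but its Ribo change at PP2 against DE was 0.06 (adjusted p = 0.943). P3H2, a prolyl 3-hydroxylase that acts on type IV collagen, had RNA levels of 555 and 601 CPM at DE, 32.2 and 32.7 CPM at PP1 and 12.03, 14.4 and 8.096 CPM at PP2, and fell, with log2 fold changes of -4.15 ± 0.301 (adjusted p = 5.50e-05) at PP1 and -5.65 ± 0.27 (adjusted p = 5.62e-06) at PP2 against DE. Its Ribo change at PP2 against DE was -4.26 ± 0.52 (adjusted p = 3.33e-04).

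The prolyl 4-hydroxylase subunits differed from each other. P4HA2 had RNA levels of 17.9 and 19.03 CPM at DE, 19.5 and 19.7 CPM at PP1 and 6.51, 6.92 and 8.28 CPM at PP2 and fell at PP2 (-1.35 ± 0.18, adjusted p = 8.71e-04 against DE), while P4HA1, with 58.8 and 64.3 CPM at DE, 43.5 and 44.1 CPM at PP1 and 30.3, 33.9 and 54.5 CPM at PP2, and P4HB, with 587 and 596 CPM at DE, 851 and 997 CPM at PP1 and 365, 414 and 99.5 CPM at PP2, passed in no RNA comparison against DE. PLOD2, the lysyl hydroxylase of cross-linking sites, had RNA levels of 180.2 and 161 CPM at DE, 68.2 and 70.04 CPM at PP1 and 108, 98.7 and 170.3 CPM at PP2 and fell at PP1 against DE (-1.302 ± 0.28, adjusted p = 0.0107). Ribo levels of P4HB were 351 and 428 CPM at DE and 872, 453 and 1190 CPM at PP2. Those of PLOD2 were 49.3 and 67.3 CPM at DE and 158, 70.9 and 157 CPM at PP2. For P4HA1 and P4HA2 the Ribo levels of DE and PP2 overlapped. Among the genes called higher at PP1 against DE, LARP6, which binds type I collagen mRNA, had a log2 fold change of 1.85 ± 0.36 (adjusted p = 0.00716), and the collagen-folding isomerases FKBP10 and FKBP14 had 1.05 and 0.997 (adjusted p = 0.0141 and 0.0203). FKBP7, of the same family, had 1.64 at PP1 and 2.98 at PP2 against DE. LARP6 and CREB3L1, a transcription factor of collagen secretion, fell at PP2 against PP1 (-2.21 ± 0.32, adjusted p = 0.00308 and -2.48 ± 0.58, adjusted p = 0.0214). FKBP7 at PP1 was lost without any 1 of the 4 libraries compared (highest 0.193). The calls of SERPINH1, P4HA2 and those of P3H2 against DE held without any 1 library. LARP6, FKBP10, FKBP14 and PLOD2 at PP1 were each lost without at least 3 of the libraries (highest adjusted p 0.0681, 0.137, 0.155 and 0.0905), and CREB3L1 without 2 (highest 0.109).

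Of 11 collagen export genes, 4 were called higher and none lower in RNA at PP1 against DE, none higher and 3 lower at PP2 against PP1, and 3 higher and none lower at PP2 against DE, beside those same 24.3%, 18.4% and 33.5% of all genes. MIA2, a cargo receptor of the endoplasmic reticulum exit sites, rose, with a log2 fold change of 2.33 ± 0.34 (adjusted p = 0.00173) at PP1 against DE, and SEC24D, the coat subunit for procollagen carriers, had 1.79 ± 0.203 (adjusted p = 4.70e-04) at PP1 against DE and -2.25 ± 0.18 (adjusted p = 2.88e-04) at PP2 against PP1. SAR1B, the coat GTPase, had changes of 1.38 at PP1 and 1.14 at PP2 against DE, and TRAPPC2 one of 0.71 at PP2 against DE. The coat subunits SEC31A and SEC13 fell at PP2 against PP1 (-1.07 and -0.65). SAR1B was lost without DE replicate 2 (adjusted p = 0.0642 at PP1 and 0.081 at PP2), and TRAPPC2, SEC31A and SEC13 without 3, 2 and 6 libraries (highest 0.192, 0.125 and 0.213). Of 15 genes for processing and cross-linking, 6 were called higher and 5 lower in RNA at PP2 against DE, where 16.4% of all genes were called higher and 17.1% lower. BMP1, the procollagen C-proteinase, rose, with log2 fold changes of 1.96 ± 0.19 (adjusted p = 2.26e-04) at PP1 and 1.66 ± 0.18 (adjusted p = 2.70e-04) at PP2 against DE, and LOXL3, a lysyl oxidase, with 1.59 ± 0.25 (adjusted p = 0.00191) at PP2. The related LOXL1 and LOXL2 fell at PP2 against DE (-0.901 and -1.86), calls lost without either DE library, and for LOXL1 also without either PP1 library (highest 0.171 and 0.0577). LOX, the classic cross-linking oxidase, reached no more than 6.07 CPM in any library. LOX rose at PP1 (1.69 ± 0.37, adjusted p = 0.0118) and PP2 (1.17 ± 0.35, adjusted p = 0.0316) against DE, calls lost without at least 3 of the libraries (highest adjusted p 0.104 and 0.203).

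Several collagen-binding proteins of the matrix rose. Of 12 collagen-binding matrix proteins, 5 were called higher and none lower in RNA at PP1 against DE, and 6 higher and 1 lower at PP2 against DE (24.3% and 33.5% of all genes in either direction), with medians of 2.23 and 1.81 against 0.01 and 0.05 over all genes. NID1 and NID2, the nidogens that bridge laminin and type IV collagen, rose in RNA at PP2 against DE, with 2.31 ± 0.44 (adjusted p = 0.00467) and 4.42 ± 0.47 (adjusted p = 2.28e-04), and in Ribo, with 4.34 ± 0.53 (adjusted p = 3.24e-04) and 4.497 ± 0.61 (adjusted p = 6.51e-04). HSPG2, the core protein of perlecan, had RNA levels of 495 and 491 CPM at DE, 2114 and 2412 CPM at PP1 and 1604, 1862 and 201 CPM at PP2, with RNA PP2 replicate 3 far below the others, and passed in Ribo at PP2 against DE (2.59 ± 0.61, adjusted p = 0.0115). SPARC, a collagen-binding matricellular protein, had RNA levels of 828 and 894 CPM at DE, 533 and 566 CPM at PP1 and 173, 194 and 344 CPM at PP2, and fell at PP2 against DE (-1.86 ± 0.295, adjusted p = 0.00187), with a Ribo change of 0.07 (adjusted p = 0.934). FMOD, fibromodulin, rose in RNA at PP1 against DE (6.47 ± 0.596, adjusted p = 1.62e-04) and fell at PP2 against PP1 (-2.68 ± 0.37, adjusted p = 0.00269). The NID1 call in RNA was lost without DE replicate 1 (adjusted p = 0.0571), and that of HSPG2 in Ribo without DE replicate 1 or 2 (0.117 and 0.0717).

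Of 10 collagen receptors, 8 were tested in RNA, and 4 were called higher and none lower at PP1 against DE, and 4 higher and 2 lower at PP2 against DE (24.3% and 33.5% of all genes in either direction). ITGA1 and ITGA2, alpha chains of collagen-binding integrins, rose in RNA at PP2 against DE, with 3.51 ± 0.38 (adjusted p = 2.61e-04) and 4.67 ± 0.32 (adjusted p = 2.59e-05). ITGA1 also rose in Ribo, with 3.45 ± 0.61 (adjusted p = 0.00289). ITGA11, another such chain, had RNA levels of 3.67 and 3.51 CPM at DE, 13.9 and 11.7 CPM at PP1 and 3.49, 4.38 and 3.08 CPM at PP2. It was called higher at PP1 against DE and lower at PP2 against PP1, calls that held without any 1 library. ITGA2 had 798 Ribo counts at PP2 against 3 at DE, a ratio of 48.7 with an exact 95% counting interval of 16.6 to 237. In RNA at PP2 against DE, the receptor kinase DDR1 fell (-1.02 ± 0.201, adjusted p = 0.00543) and DDR2 rose (3.53 ± 0.78, adjusted p = 0.00933), calls lost without 1 and 2 libraries (highest adjusted p 0.0696 and 0.0835). Of 13 breakdown genes, 11 were tested in RNA, with 2 higher and 2 lower at PP2 against DE, near the 33.5% of all genes called. MMP1, the interstitial collagenase, had RNA levels of 0 and 0.133 CPM at DE, 4.65 and 6.69 CPM at PP1 and 16.8, 12.7 and 48.2 CPM at PP2, a PP2 to DE ratio of 427 with an exact 95% counting interval of 118 to 3532. The membrane collagenases MMP16 and MMP14 rose at PP1 against DE (2.81 and 0.82), as did the inhibitor TIMP1 (1.44). The gelatinase MMP2 and the inhibitor TIMP3 fell at PP1 (-1.43 and -1.44) and PP2 (-0.85 and -1.13) against DE. The calls of MMP14 and TIMP1 at PP1 and of MMP2 at PP2 were lost without either DE library, MMP14 also without either PP1 library and TIMP1 also without PP1 replicate 1 (highest 0.194, 0.0777 and 0.118).

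Fibrillar collagens are typical of mesenchyme, so the levels of 14 mesenchyme markers are given beside them. Their summed RNA level was 350 to 407 CPM at DE, 741 to 933 CPM at PP1 and 433 to 506 CPM at PP2, with VIM at 254 and 199 CPM at DE, 601 and 772 CPM at PP1 and 238, 312 and 243 CPM at PP2. PDGFRA had 76.1 and 85.2 CPM at DE, 97.97 and 99.3 CPM at PP1 and 142, 130.3 and 219 CPM at PP2, while ACTA2 was at 0 counts in DE RNA, and 3 of the 14 averaged at least 10 CPM in each RNA group. In RNA at PP2 against DE, 6 of the 11 tested were called higher, among them PDGFRA (1.02 ± 0.25, adjusted p = 0.015) and PDGFRB (0.97 ± 0.25, adjusted p = 0.0184), and 2 lower, among them TAGLN (-2.57 ± 0.25, adjusted p = 1.60e-04), where 16.4% of all genes were called higher and 17.1% lower. The PDGFRA and PDGFRB calls were each lost without 2 libraries (highest adjusted p = 0.13 and 0.137, without DE replicate 1). Summed endothelial markers were 168 to 202 CPM at DE, 17.9 to 19.8 CPM at PP1 and 36.3 to 52.2 CPM at PP2, and summed neural markers 147 to 163, 18.1 to 21.1 and 47.6 to 54.1 CPM. Most of the DE sums came from VWF (132 and 160 CPM) and PAX6 (99.0 and 105 CPM), and the other members went both ways. NCAM1, for example, had 37.3 and 46.0 CPM at DE and 16.5, 16.1 and 6.85 CPM at PP2. In RNA at PP2 against DE, 4 of 7 endothelial markers tested were called higher and 2 lower, with a median log2 fold change of 3.12. Of 5 neural markers tested, 1 was called higher and 3 lower, with a median of -1.66. The neural marker called higher was MAP2, at 0.888 and 0.398 CPM at DE and 29.9, 29.0 and 30.9 CPM at PP2. The part of these cell types in the collagen changes was not tested.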

How the data were processed

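RNA and ribosome-bound RNA (Ribo) were measured in 14 libraries. The deposited values are whole-number read counts per gene, which the authors made with cutadapt 1.18, Bowtie 1.2, STAR 2.7.1a and featureCounts 1.6.4 on hg38, per the submitters' processing notes. The strand setting, annotation release and counted feature are not given in the sources used here, so overlapping genes may share reads.

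Counts were tested with edgeR 4.0.16 (R 4.3.3): filterByExpr, TMM scaling and the quasi-likelihood test, with Benjamini-Hochberg adjustment over all genes tested and a threshold of 0.05. RNA and Ribo were fitted separately over all 3 stages, and the Ribo change minus the RNA change was tested as an interaction in 1 fit of all 14 libraries. CPM is counts over the TMM-scaled library size. Levels per kilobase use the length in the count table, since no protein table was used here to give coding lengths. The scripts were tested on simulated data. Members and gene lists were chosen with earlier results of these data known. Collagen genes with a mean of at least 10 CPM at a stage were named with every library. Up to 3 genes called in each direction were picked from each other list, by size of change among those with a mean of 10 CPM. Not every gene picked this way is given in the text, mostly among the cell type markers. SERPINH1, P4HA1, P4HA2, P4HB, PLOD2, LOX, SPARC and HSPG2 are always given. Bounds use 3 counts over a group. The alternatives were another scaling, no filter, DESeq2 1.42.0, limma 3.58.1 (voom), only the stages compared, protein-coding genes only, a replicate block and each library left out.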

Additional observations from a re-analysis of the deposited data

Results flagged for a closer look

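The change in Ribo differed from the change in RNA, by edgeR's quasi-likelihood interaction test, for 5 collagen chain genes. At PP2 against DE the Ribo change minus the RNA change was 2.32 on the log2 scale for COL1A2, -4.49 for COL12A1, -2.88 for COL4A3 and -2.38 for COL7A1. At PP2 against PP1 it was -2.83 for COL9A1. Of all genes tested, 5.69% were called at PP2 against DE and 0.0777% at PP2 against PP1. With 1 of the 14 libraries left out in turn, the calls of COL1A2, COL12A1, COL4A3, COL7A1 and COL9A1 were lost in 10, 4, 8, 9 and 3 runs, and none of the 5 was called with only the stages compared. The share of protein-coding counts in Ribo, 34.8% and 35.3% at DE, 28.2% and 30.9% at PP1 and 95.2%, 43.97% and 79.9% at PP2, changed along with the stage, and its part in these differences was not tested.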

How the results depend on the processing

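No called direction reversed under any alternative that was run, where a change of sign in a gene called in neither run was counted as no change. Counts of collagen genes called moved by more than 1.5 times mostly in Ribo and in the Ribo change minus the RNA change, and the cause was not tested. Calls over all genes moved too, so the counts below are not particular to collagen genes. In Ribo at PP1 against DE, 682 higher and 454 lower of all genes became 1551 and 1497 with voom. With only the stages compared they became 1650 and 1500. For the Ribo change minus the RNA change at PP2 against DE, 284 and 521 became 2079 and 2059 with voom. In Ribo at PP1 against DE, 5 genes became 10 with DESeq2, 15 with limma voom, 16 with only the stages compared, 9 with protein-coding genes only, 15 without Ribo PP2 replicates 1 and 3, and 3 to 14 with 1 library left out. In Ribo at PP2 against PP1, 4 became 9 without a filter, 11 with DESeq2, 18 with voom, 8 with protein-coding genes only, 7 without Ribo PP2 replicates 1 and 3, and 1 to 18 with 1 library left out. In Ribo at PP2 against DE, 21 became 11 to 29 with 1 library left out, and in RNA at PP2 against PP1, 23 became 10 to 31. For the Ribo change minus the RNA change, 0 at PP1 against DE became 1 without a filter, 3 with DESeq2, 2 with voom, 5 with only the stages compared, 3 without Ribo PP2 replicates 1 and 3, and 0 to 3 with 1 library left out. At PP2 against PP1, 1 became 4 with DESeq2, 16 with voom, 0 with only the stages compared, 0 without Ribo PP2 replicates 1 and 3, 0 without replicate 3 of PP2 in both assays, and 0 to 10 with 1 library left out. At PP2 against DE, 4 became 10 without a filter, 11 with DESeq2, 16 with voom, 0 with only the stages compared, 2 without Ribo PP2 replicates 1 and 3, and 0 to 20 with 1 library left out.

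No pairing by replicate number was seen: the deviations of same-numbered libraries correlated at -0.192 to 0.102 across genes, and number 3 exists only at PP2. In a group of 2 libraries the deviations mirror each other, so this check cannot show whether same-numbered libraries shared a culture or batch. With the replicate number as a block, RNA gave 31, 30 and 28 calls at PP1 against DE, PP2 against PP1 and PP2 against DE, Ribo gave 4, 3 and 12, and the Ribo change minus the RNA change gave 0, 1 and 1. Since number 3 exists only at PP2, its block term fits replicate 3 of PP2 exactly in the separate RNA and Ribo fits. That library then adds nothing to the stage comparisons. Without RNA PP2 replicate 3 and with no block, RNA gave 15 higher and 16 lower, 9 and 22, and 10 and 18. Over all 24603 genes in RNA, the block gave 5912 higher and 5801 lower, 4232 and 5526, and 5997 and 6478. A block of stage and number across the assays gave 1, 0 and 2 for that difference. This block and leaving out replicate 3 of PP2 in both assays were chosen after seeing the data. Ribo depth limits the low chains: COL4A3 rests on 16 Ribo counts at PP2.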
